A study of Mus musculus with 9 samples.

Results

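miR-486-5p, a microRNA that the study's title names as a regulator of neurogenesis, was followed together with miR-451a and miR-144-5p, which mark red blood cells. They were picked by name: mmu-miR-486a-5p, mmu-miR-486b-5p, mmu-miR-451a and mmu-miR-144-5p fill 6 rows of the count table. The first pair of names holds the same reads and is called miR-486-5p, which leaves 3 microRNAs of the 1052 kept from the table. Small RNA was sequenced from 3 cell populations, with 3 libraries each, of the lateral cortex of mouse embryos (strain C57BL/6, embryonic day 14.5). Cells were sorted by a pair of fluorescent reporters that the labels call R and G: proliferating progenitors carried neither, differentiating progenitors carried R without G, and newborn neurons carried G. All 3 populations come from the same dissected and papain-dissociated tissue, from which the meninges had been removed. The labels name no reporter gene, state no age or strain difference between the groups and do not say how many embryos a library holds, so p-values measure the spread between these libraries, which may be technical. A gate set by the absence of both reporters admits any cell without them, and no step against blood cells is described in the labels.

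MicroRNAs are short RNAs that guide Argonaute proteins to messenger RNAs, mainly through the seed, bases 2 to 8. miR-144 and miR-451a are cut from a shared transcript that GATA1 switches on in red cell precursors, and miR-451a is known for skipping Dicer: its hairpin is cut by Argonaute 2 itself. miR-486-5p comes from an intron of Ank1, the gene of a red cell membrane ankyrin, and is abundant in red cells and in muscle. A cortex holds red cells in its vessels at this age, so a count of miR-486-5p in sorted cortical cells can be set beside the counts of miR-451a and miR-144-5p in the same library.

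The RefSeq miRNA table (GRCm38.p6) held 2 of the 3 microRNAs. The mature sequences of these 2, the red cell markers that miR-486-5p is set beside, are shown with the seed in capitals. No other mouse miRNA of the table shares either seed.
miR-451a: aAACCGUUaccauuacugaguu
miR-144-5p: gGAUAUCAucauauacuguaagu

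Both hairpins lie on the plus strand of chromosome 11 (GRCm38.p6, the build that mm10 names), Mir144 at 78073005 to 78073070 and Mir451a at 78073170 to 78073241, with 99 bases between them. In the hairpins below the mature microRNA is in capitals. miR-144-5p fills bases 6 to 28 of 66 and stays within the first arm, while miR-451a fills bases 17 to 38 of 72 and runs past base 36, the middle of its hairpin.
Mir144: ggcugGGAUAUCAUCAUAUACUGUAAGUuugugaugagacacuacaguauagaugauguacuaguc
Mir451a: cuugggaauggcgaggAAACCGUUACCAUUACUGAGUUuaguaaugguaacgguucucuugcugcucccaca

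Neither hairpin overlaps a gene other than a miRNA gene in GENCODE M21, and the nearest coding gene is Eral1 on the minus strand, 135 bases from Mir451a. miR-486-5p has a pair of overlapping genes on chromosome 8: Mir486 at 23142555 to 23142682 on the plus strand and Mir3107, also called mir-486b, at 23142573 to 23142662 on the minus strand. Both lie inside Ank1 (22974844 to 23150497, plus strand) and inside the antisense gene Gm15816, in introns: no exon of either gene overlaps them.

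The libraries held 821155 to 3856484 counts of mature miRNAs, and levels are given as CPM, counts scaled to a total of 1e6 with TMM factors. In each of the 9 libraries 62.5% to 69.0% of the counts were those of miR-9-5p, which marks neural tissue, and all 9 miRNAs of a neural list were among the 188 that passed the filter on low counts. miR-451a and miR-144-5p passed that filter through the proliferating progenitors alone, so the number of them called carries no weight of its own. A lower level in a sorted population can mean fewer cells that hold the microRNA or less of it per cell, and these cannot be told apart in pooled RNA.

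miR-486-5p was high in the proliferating progenitors, lowest in the differentiating progenitors and intermediate in newborn neurons. Under either name, mmu-miR-486a-5p or mmu-miR-486b-5p, it had 1025, 792 and 364 counts in replicates 1 to 3 of the proliferating progenitors, which is 777, 810 and 477 CPM. Differentiating progenitors had 45, 25 and 56 counts, or 32.1, 22.0 and 39.9 CPM. Newborn neurons had 395, 199 and 108 counts, or 102, 105 and 83.0 CPM. No library of a population reached into the range of another, and the lowest library of the proliferating progenitors was well above the highest of the neurons.

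Without TMM scaling, replicate 3 of the proliferating progenitors was at 443 CPM with a 95% Wilson interval of 400 to 491, below the intervals of replicate 1 (728 to 823) and replicate 2 (682 to 784). The neuron libraries were at 102, 106 and 101 CPM on the same scale and their intervals overlapped, but with TMM scaling replicate 3 was lower, at 83.0 CPM, since its TMM factor, 1.219, was the highest of the 9. Intervals cover counting error only, since PCR reads are not independent molecules.

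At the first step, between both progenitor populations, miR-486-5p fell (log2 change -4.44, SE 0.26, edgeR adjusted p = 5.67e-10). This was the third largest fall among 188 miRNAs, after those of miR-451a and miR-144-5p, and the next was that of miR-142a-5p. It rose by 1.61 at the second step (SE 0.25, edgeR adjusted p = 8.38e-05) and remained lower in neurons than at the start (log2 change -2.83, with an SE of 0.23, edgeR adjusted p = 1.82e-08). In an exact permutation test of log2 CPM over all 1680 arrangements of the libraries, a difference among the 3 populations gave p = 0.00357, the smallest value possible (adjusted p = 0.00893 over 5 permutation tests).

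By abundance, miR-486-5p ranked 44th of 407 miRNAs with a count in the proliferating progenitors, just below miR-129-5p (689 CPM) and above miR-192-5p (682 CPM), at 688 ± 184 CPM (SD, n = 3). It ranked 113th of 430 in the differentiating progenitors, between miR-466i-5p (31.8 CPM) and miR-296-5p (28.7 CPM), at 31.3 ± 8.95 CPM (SD, n = 3). In neurons it ranked 83rd of 498, between miR-1843a-5p (96.6 CPM) and miR-369-5p (86.4 CPM), at 96.6 ± 11.9 CPM (SD, n = 3). None of these neighbours differed from it by more than its SD.

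miR-451a and miR-144-5p were found almost wholly in the proliferating progenitors. mmu-miR-451a had 390, 298 and 183 counts there, or 296, 305 and 240 CPM. It had 3, 1 and 3 counts in the differentiating progenitors, and neurons had 5, 0 and 3, so that none of those 6 libraries held more than 5. The summed counts were 160 times higher in proliferating than in the differentiating progenitors after scaling (95% exact interval 77.4 to 399.6) and 252 times higher than in neurons (127 to 585). edgeR called both differences (adjusted p = 2.30e-10 and 2.62e-11). The exact intervals pool the reads of 3 libraries and leave out the spread between libraries.

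mmu-miR-144-5p, the other product of the locus, had 45, 48 and 16 counts in the proliferating progenitors, or 34.1, 49.1 and 21.0 CPM. It had 1, 0 and 1 counts in the differentiating progenitors and 0 in all 3 neuron libraries. Its summed counts, likewise pooled over libraries, were 70.2 times higher in proliferating than in the differentiating progenitors (95% exact interval 19.0 to 587). Against neurons it was at least 22.3-fold higher, taking 3 counts in each neuron library as the limit that a count of 0 allows (0.772, 1.58 and 2.31 CPM in replicates 1 to 3). The edgeR adjusted p-values of these differences were 2.31e-06 and 6.66e-08. Of the 4 miRNAs of the erythroid list 3 were in the table, and miR-451b had 0 counts in every library. miR-144-3p, from the other arm of Mir144, had no row, so the counts of miR-144-5p say little about that arm.

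**Figure D1:**
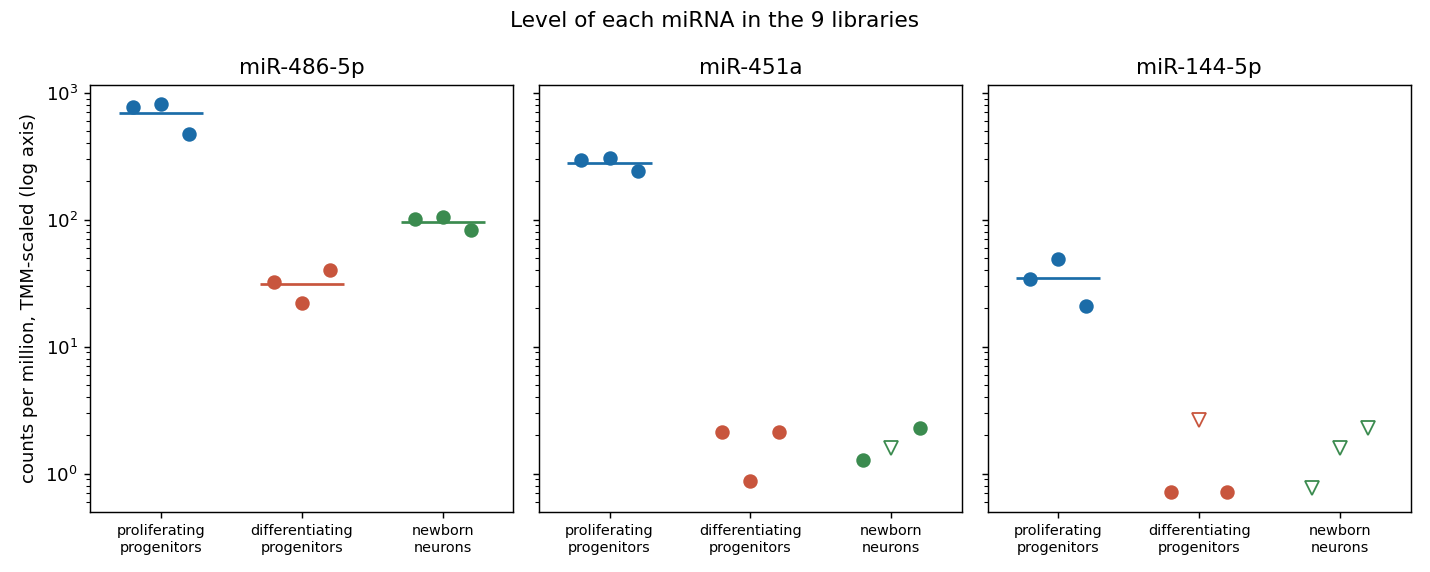
Level of miR-486-5p, miR-451a and miR-144-5p in each of the 9 libraries, in TMM-scaled CPM on a log axis. Filled points are libraries, in the order of replicates 1 to 3, lines are population means where every library had more than 3 counts, and open triangles mark libraries with 0 counts at the level of 3 counts. miR-486-5p stays above 20 CPM in every library, whereas miR-451a and miR-144-5p drop below 3 CPM outside the proliferating progenitors.

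miR-486-5p was called lower in differentiating than in the proliferating progenitors, as were 7.98% of the 188 tested miRNAs. It was also called lower in neurons than in the proliferating progenitors, as were 26.6%. Its libraries did not overlap in either comparison, where 18.6% and 31.9% of the tested miRNAs were likewise lower in every library. miR-451a and miR-144-5p were lower in the same way. They passed the filter through the proliferating progenitors alone, so their calls and lack of overlap carry no weight of their own. At the second step miR-486-5p was called higher in neurons, as were 23.9% of the tested miRNAs, and its libraries did not overlap, where 27.1% of the tested miRNAs were likewise higher in every library. miR-451a (log2 change -0.62, SE 0.72, edgeR adjusted p = 0.523) and miR-144-5p (-2.88, SE 1.40, edgeR adjusted p = 0.109) were not called, where 22.3% of the tested miRNAs were called lower, at counts too low to show a difference of modest size. Compared directly, the log2 ratio of miR-486-5p to miR-451a within a library was higher by 2.65 in neurons than in differentiating progenitors. The exact permutation p was 0.1 (adjusted p = 0.1), the smallest that this test can give. It therefore cannot show at a threshold of 0.05 that their second steps differ. Of the 15 miRNAs called lower at the first step, miR-486-5p was the only one also called higher at the second, and 1 other, miR-33-5p, had a positive estimate there (0.73, SE 0.45, edgeR adjusted p = 0.206). Both steps use the libraries of differentiating progenitors.

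**Figure D2:**
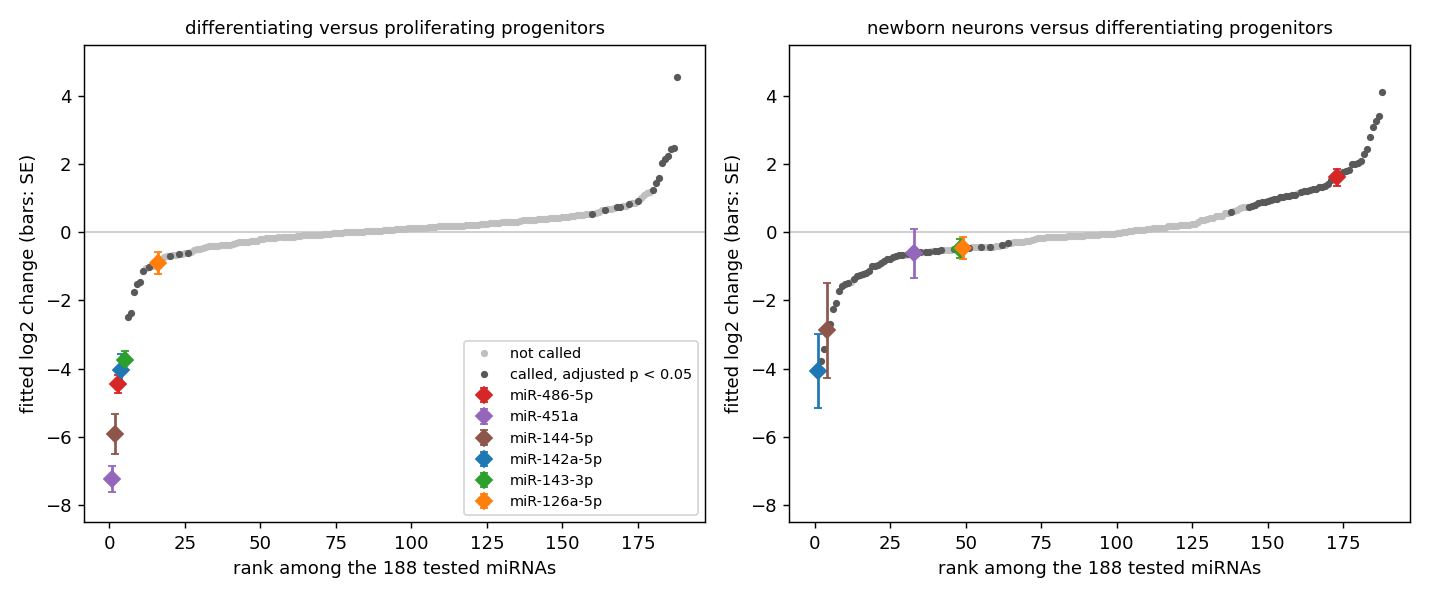
Fitted log2 change of the 188 tested miRNAs at the first step (left) and the second step (right), ranked from the lowest to the highest on the x axis, with called miRNAs in dark grey and SE bars on 6 named miRNAs. The 5 lowest miRNAs at the first step are miR-451a, miR-144-5p, miR-486-5p, miR-142a-5p and miR-143-3p, and at the second step miR-486-5p ranks 173rd, among the miRNAs that rose.

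The ratio of miR-486-5p to miR-451a counts within a library does not depend on scaling, and it differed between the populations. In the proliferating progenitors there were 2.63, 2.66 and 1.99 counts of miR-486-5p for each count of miR-451a in replicates 1 to 3. In the differentiating progenitors the ratios were 15.0, 25.0 and 18.7. In neurons they were 79.0 in replicate 1 and 36.0 in replicate 3, and replicate 2 had 199 counts of miR-486-5p with 0 of miR-451a. The 3 populations did not overlap, with the lowest ratios in the proliferating progenitors and the highest in neurons. Outside the proliferating progenitors these ratios rest on at most 5 counts of miR-451a in a library. The highest ratio of the differentiating progenitors, 25.0, had 1 such count and the lowest of neurons, 36.0, had 3, so the gap between these populations is uncertain.

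Over summed counts the ratio was 2.50 in the proliferating progenitors (95% exact interval 2.31 to 2.71), 18.0 in the differentiating progenitors (8.48 to 45.7) and 87.8 in neurons (44.3 to 204). These intervals pool the reads of 3 libraries and leave out the spread between libraries. Replicate 3 of the proliferating progenitors, at 1.99, lay below the interval of its population. With 0.5 added to both counts, the mean log2 ratio was 1.26 ± 0.24, 3.93 ± 0.21 and 6.59 ± 1.88 (SD, n = 3 each). An exact permutation test gave p = 0.00357 for any difference among the 3 populations (adjusted p = 0.00893). Between pairs of populations the log2 ratio differed by 2.67, 2.65 and 5.32, each with an exact two-sided p of 0.1, the smallest that 3 libraries against 3 allow. The second and the third of these rested in part on single neuron libraries. Without replicate 2, which had 0 counts of miR-451a, they were 1.63 and 4.30, and without replicate 3 they were 3.47 and 6.14. With miR-144-5p in place of miR-451a the first difference was 0.95, again with no overlap between the populations (exact permutation p = 0.1). It rests on 1, 0 and 1 counts of miR-144-5p in the differentiating progenitors, so it depends strongly on the added 0.5.

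Multiplying the miR-451a counts by the ratio seen in the proliferating progenitors gives the miR-486-5p counts that would go with them at that ratio. For differentiating progenitors this is 17.5 counts over the 3 libraries (13.9 to 18.6 with the lowest and highest ratio of a library), where 126 were counted. For neurons it is 20.0 counts (15.9 to 21.3), where 702 were counted. Both are arithmetic at a fixed ratio. The ranges vary the ratio alone and leave out the counting error of the miR-451a counts, 7 in the differentiating progenitors and 8 in neurons. Whether red cells among the other populations would carry that ratio was not tested. In the proliferating progenitors miR-486-5p had 2181 counts in all beside 871 of miR-451a and 109 of miR-144-5p. What part of the miR-486-5p counts came from red cells was not tested in any population. For each count of miR-144-5p in the proliferating libraries there were 8.67, 6.21 and 11.4 counts of miR-451a.

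**Figure D3:**
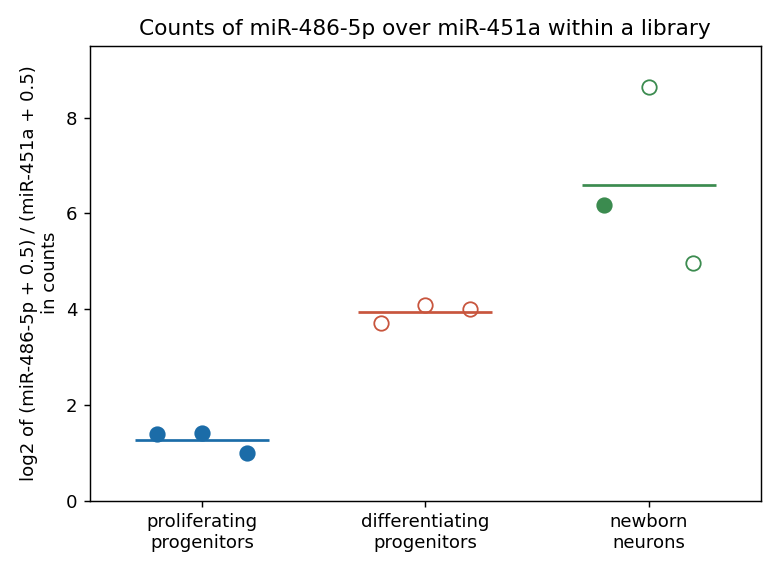
Log2 ratio of miR-486-5p to miR-451a counts within each library, with 0.5 added to both counts. Lines are population means, and open points are libraries with at most 3 counts of miR-451a. The proliferating progenitors lie between 0.99 and 1.41, the differentiating progenitors between 3.70 and 4.09 and the neurons between 4.95 and 8.64.

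The miRNAs whose levels over the 9 libraries were most like those of miR-486-5p were, outside the 3 microRNAs described, miR-143-3p (Pearson r = 0.85), miR-33-5p (0.84), miR-669a-5p (0.83), miR-142a-5p (0.82) and miR-467a-5p (0.77). The r with miR-451a and with miR-144-5p was 0.90 each. These values describe log2 CPM over 9 libraries in 3 populations that share their tissue. How far they follow the fall at the first step was not tested, and miR-669a-5p was not called there (log2 change -0.63, SE 0.32, edgeR adjusted p = 0.213). The miRNAs most like miR-451a were miR-142a-5p (0.97), miR-143-3p (0.95), miR-126a-5p (0.88), miR-129-5p (0.88) and miR-467a-5p (0.87), and its r with miR-144-5p was 0.99.

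Of these, miR-142a-5p, miR-143-3p and miR-126a-5p mark blood or vessel cells, and miR-33-5p, miR-669a-5p and miR-467a-5p were on no list. miR-129-5p is on the neural list and was called lower at the first step (log2 change -1.01, SE 0.18, edgeR adjusted p = 0.000875). It was the only 1 of the 9 neural miRNAs called lower there, while 3 were called higher. Of all tested miRNAs, 7.98% were called lower and 7.98% higher at this step. miR-142a-5p, a marker of white blood cells, had 34, 20 and 14 counts in the proliferating progenitors, 3, 1 and 1 in the differentiating progenitors and 0 in each neuron library. Like miR-144-5p and unlike miR-486-5p, it was not detected in neurons.
miR-142a-5p: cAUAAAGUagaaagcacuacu

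Its seed, in capitals, is not that of miR-451a or miR-144-5p. The leukocyte list had 5 of its 7 miRNAs in the table, of which miR-223-5p and miR-150-5p had at most 1 count in any library and 3 were tested. miR-142a-5p alone of these 3 was called lower at the first step (log2 change -4.03, SE 0.46, edgeR adjusted p = 1.06e-05), as were 7.98% of all tested miRNAs. Like miR-451a, it passed the filter through the proliferating progenitors alone, so its call carries no weight of its own. miR-155-5p (-0.98, edgeR adjusted p = 0.0732) and miR-146a-5p (1.08, edgeR adjusted p = 0.0966) were not called. The median of the 3 was -0.98, beside 0.08 over all tested miRNAs. The summed level of the list was 47.1 to 60.3 CPM in the proliferating progenitors, 20.7 to 37.0 in the differentiating progenitors and 8.44 to 9.01 in neurons.

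miR-143-3p, abundant in the smooth muscle and pericytes of vessel walls, had 566, 547 and 432 counts in the proliferating progenitors, 50, 45 and 56 in the differentiating progenitors, and in neurons it had 133, 62 and 15. It fell at the first step (log2 change -3.75, SE 0.28, edgeR adjusted p = 1.49e-08) and, unlike miR-486-5p, was not called at the second (-0.48, SE 0.29, adjusted p = 0.19). Whether the second steps of these 2 miRNAs differ was not tested. Its list had 7 of 9 miRNAs in the table, 2 of them at 0 throughout, and only miR-143-3p was tested. The summed level was 439 to 580 CPM in the proliferating progenitors, 40.0 to 44.9 in the differentiating progenitors and 19.2 to 36.4 in neurons. Nearly all of it was miR-143-3p itself, with means of 518, 38.4 and 26.2 CPM. The other members had at most 7 counts in any library, so the sum says little beyond miR-143-3p. miR-126a-5p, the endothelial marker, had 30, 18 and 20 counts, then 16, 14 and 17, then 35, 10 and 16, and its first step was not called (log2 change -0.90, SE 0.32, edgeR adjusted p = 0.0638). The endothelial list had 3 of its 4 miRNAs in the table, and the 2 others were at 0. miR-126a-3p, from the other arm of the same hairpin, had no row, so these counts say little about that arm. The part of these cells in the levels of miR-486-5p was not tested.

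**Figure D4:**
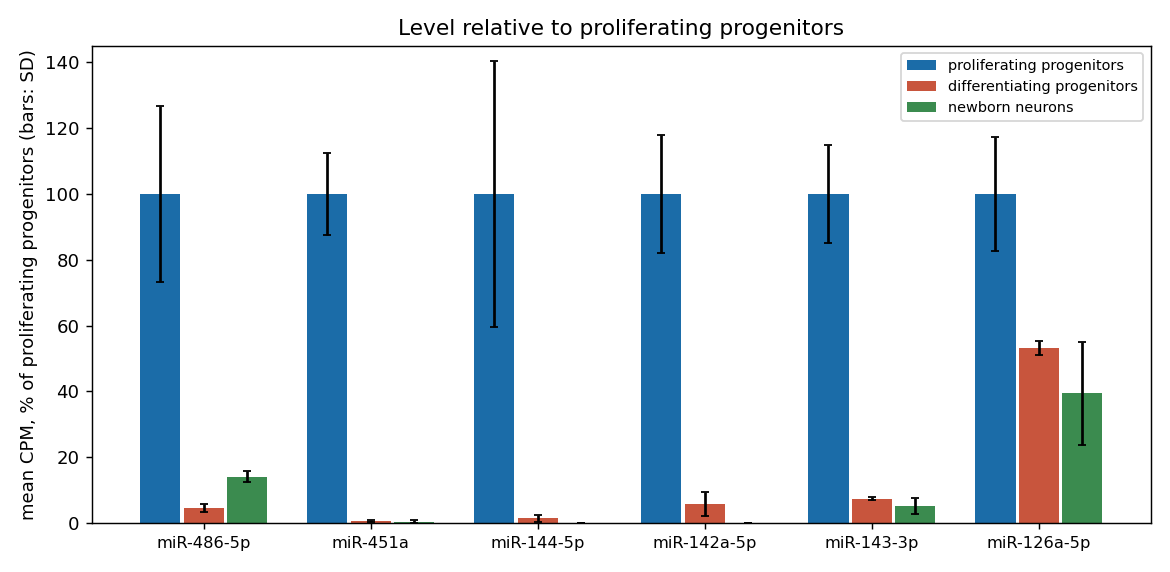
Mean CPM of miR-486-5p, the red cell miRNAs miR-451a and miR-144-5p, the white blood cell miRNA miR-142a-5p and the vessel miRNAs miR-143-3p and miR-126a-5p, as a percentage of their mean in the proliferating progenitors, with SD over 3 libraries. In the differentiating progenitors miR-486-5p stands at 4.56%, between miR-144-5p (1.37%) and miR-142a-5p (5.79%), and in neurons at 14.0%, above every other miRNA shown but miR-126a-5p (39.5%).

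Muscle, the other known site of miR-486-5p, left few counts. The muscle list had 8 of its 15 miRNAs in the table, and 7 of them, among them miR-133a-5p, miR-206-5p and miR-208a-5p, had 0 counts in all libraries. Most of these are the lesser arms of their hairpins, so a row at 0 says little about the main arm. miR-499-5p, made from a myosin gene and the main arm of its hairpin, had 13, 6 and 0 counts in the proliferating progenitors, 1, 0 and 1 in the differentiating progenitors, and in neurons it had 4, 1 and 2. These counts were too few for the test.

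MicroRNAs from hairpins that are active in red cells but also in other tissues were listed apart. None of those tested was called lower at the first step, where only 7.98% of all tested miRNAs were called lower and 7.98% higher. Some of the tested rows, among them miR-25-5p, miR-92a-1-5p and miR-363-5p, are the lesser arms of their hairpins, so they say little about the main arm. Of 19 such miRNAs, 15 were in the table and 13 were tested. Of the 13, 1 was called higher at the first step, miR-183-5p (log2 change 1.46, SE 0.40, edgeR adjusted p = 0.0188), with a median of -0.03 beside 0.08 over all tested miRNAs. miR-16-5p, among the most abundant miRNAs of red cells, had 1010 CPM in the proliferating progenitors, 900 in the differentiating progenitors and 779 in neurons, and was called at neither step. At the second step 4 of the 13 were lower and 3 higher, beside 22.3% and 23.9% of all tested miRNAs, and the risers were miR-182-5p, miR-183-5p and miR-185-5p. The summed level of the 15 was 6242 to 6551 CPM in the proliferating progenitors and 6015 to 6776 in the differentiating progenitors, so the libraries of both overlapped. In neurons it was 4691 to 7801 CPM.

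The table lists miR-486-5p under both of its precursors, and their rows differed. The row of mir-486b held 3009 counts over the 9 libraries and that of mir-486a 2890, a difference of 119 counts or 3.95% of the larger (95% Wilson interval 3.32% to 4.71%). Among 31 miRNAs with repeated rows and at least 50 counts, the smallest row held a share of 0.9986 of the largest in the median and 0.9605 for miR-486-5p, and 10 had a lower share. The difference was 55, 25 and 18 counts among the proliferating libraries, together 4.49% (3.70% to 5.45%). It was 3, 11 and 7 counts in neurons, or 2.99% (1.96% to 4.53%) over pooled reads. The neuron libraries were not alike. Replicate 1 was at 0.76% (0.26% to 2.21%), below the intervals of replicate 2 (3.11% to 9.63%) and replicate 3 (3.17% to 12.8%). In the differentiating progenitors the difference was 0 of 126 counts, which allows a share of up to 2.38% by the limit of 3 counts and up to 2.96% by the Wilson interval. Which hairpin the reads came from is not resolved by these rows.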

How the data were processed

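The authors deposited raw read counts per mature miRNA and precursor, 1 column per library; the submitters' processing notes name the build mm10, bcl2fastq 1.8.2 and DESeq2, with no role given. The aligner, the counting tool and the miRBase release are not given in the sources used here. Of 1433 rows, the 222 without an accession were left out, the row with the largest total was kept for each name, and names with at least 50 counts that differed by at most 2% were merged, which left 1052 miRNAs. edgeR 4.0.16 in R 4.3.3 (filterByExpr, TMM, glmQLFit, glmQLFTest, all 9 libraries, no covariate) tested 188 miRNAs, with Benjamini-Hochberg adjustment over them and a threshold of 0.05. Single values were compared by exact permutation tests. Log2 CPM used a prior count of 2. The script was tested on simulated data. The microRNAs, lists and tests were chosen with earlier results of these data known. Named were the 3 microRNAs, members of the lists, the 5 miRNAs most correlated with miR-486-5p or miR-451a, and neighbours in abundance. Alternatives covered scaling, filters, DESeq2 1.42.0, the libraries fitted, row choice and a replicate block. Loci are from GENCODE M21 and sequences from RefSeq.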

Additional observations from a re-analysis of the deposited data

How the results depend on the processing

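miR-486-5p kept its direction and call in each of the 3 comparisons under all 19 alternatives, 1 of which, the row of its other precursor, was added after seeing the data. Its log2 change ran from -4.67 to -4.24, from 1.44 to 1.89 and from -3.03 to -2.66. miR-451a and miR-144-5p kept their calls against the proliferating progenitors in the same alternatives. They passed the filter through the proliferating progenitors alone, so that these calls persist carries no weight of its own. At the second step the fit to the 6 libraries of the pair gave no value for them, since neither passed the filter there. The number of miRNAs called at the first step, 30, ran from 18 to 37 when single libraries were left out, with the lowest value without replicate 1 of the proliferating progenitors, and was 68 with every row with an accession, where repeated reads enter several times. Scaling moved the median log2 change of all miRNAs at the second step from -0.06 (TMM) to 0.11 (total counts without miR-9-5p), and the calls there from 42 lower and 45 higher to 26 and 49. With total counts they were 29 and 46. The replicate numbers do not pair the libraries by any label, and deviations of same-numbered libraries correlated from -0.07 to 0.25 (4 of 9 above 0.1, and 10 of 18 best matches with the own number). With the replicate block the log2 changes of miR-486-5p were -4.40, 1.59 and -2.82, and 33, 88 and 108 miRNAs were called in place of 30, 87 and 106. Counts of at most 5 for miR-451a outside the proliferating progenitors limit every ratio there.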
